A study of Oryza sativa with 4 samples.

Results

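The regions described here were the stretches of rice chromosomes 11 and 12 that lie beyond the duplicated ends of their short arms, in a ChIP-seq experiment on OsLEC1 in callus. A peak was taken as a member when its summit lay on chromosome 11 or 12, at or after 3000000, more than 2 Mb from the centromere (12 Mb on chromosome 11 and 11.9 Mb on chromosome 12) and more than 1 Mb before the last summit of the chromosome. Of the 27452 OsLEC1-ChIP peaks, 1653 (6.02%) were members, 917 on chromosome 11 and 736 on chromosome 12. Of the 1227 peaks listed on chromosome 11, 174 lay before 3 Mb, 92 around the centromere and 44 in the last megabase. Of the 1047 peaks on chromosome 12, those counts were 151, 109 and 51. All positions are on the rice genome build IRGSP-1.0.

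The study profiled where OsLEC1 binds in callus, the unorganised cell mass that rice scutellum forms on auxin medium. There were 4 libraries, 1 for each group: chromatin precipitated from transgenic 35S:3*FLAG-OsLEC1 callus in the Nipponbare background (OsLEC1-ChIP), the input chromatin of that callus (OsLEC1-input), chromatin precipitated from wild-type Nipponbare callus (NIP-ChIP) and its input (NIP-input). Both calli were induced for 30 days on medium with 10 μM 2,4-D, and both precipitations used an antibody against the FLAG epitope, which the wild type lacks. The 35S promoter is active in nearly all plant cells, so the tagged protein was overexpressed from a transgene and not made at its native level or only in its native tissue.

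LEAFY COTYLEDON1 proteins are NF-YB subunits. NF-YB pairs with NF-YC through a histone-like fold, and the pair joins NF-YA or other transcription factors at DNA. LEC1 is known from Arabidopsis as a regulator of embryo and seed maturation genes, and of embryonic programmes when it is expressed outside the seed. In rice, as in other grasses, the chromatin around centromeres is rich in repeats and poor in active genes, and gene density tends to increase along the arms. The short-arm ends of chromosomes 11 and 12 share a duplicated segment, and the rest of both chromosomes is known for many tandem families, disease resistance genes among them. No genome or gene annotation of the build was used here, so peaks are given by position and not by gene.

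A peak is a stretch where the precipitated fragments pile up above a local background set by the input library. Its pileup is the number of fragments over the summit, its fold enrichment is the pileup over that background (each with 1 added), and its −log10 q is the strength of the call after correction over the genome. The pileup and the background were recovered from the fold and the p-value for every peak. With 1 library in each group there was no replicate, and all intervals (95%) cover counting error, or the choice of peaks for a median, and no more. NIP-ChIP, called against its own input, had 2 peaks in all and 0 in the member stretches, which total 40.5 Mb. A count of 0 allows up to 0.0741 peaks per Mb there, against 40.8 in OsLEC1-ChIP. Both NIP-ChIP peaks were on chromosome 11, 123 and 353 kb from the centromere and so inside the margin left out. NIP-ChIP carried at most 24.1% of the coverage of OsLEC1-ChIP, so that its empty list also has less depth behind it.

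On each of the 2 chromosomes the arms had nearly equal peak density. On chromosome 11 the long arm (14000001 to 27977742) held 625 peaks, or 44.7 per Mb (41.3 to 48.4), and the short arm (3000000 to 9999999) held 292 peaks, or 41.7 per Mb (37.1 to 46.8). On chromosome 12 the long arm (13900001 to 26517277) held 469 peaks, or 37.2 per Mb (33.9 to 40.7), and the short arm (3000000 to 9899999) held 267 peaks, or 38.7 per Mb (34.2 to 43.6). The long-arm density over the short-arm density was 1.07 (0.931 to 1.24) on chromosome 11 and 0.961 (0.825 to 1.12) on chromosome 12, so that neither pair of arms could be told apart by its counting error.

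Most other chromosomes were less even. Under the same limits, the long-over-short ratio was 1.36 or more on 7 of the 9 other chromosomes that have both arms, with 1.36 on chromosome 1, 1.79 on chromosome 2, 1.83 on chromosome 7, 2.07 on chromosome 8, 2.42 on chromosome 5, 2.80 on chromosome 10 and 4.24 on chromosome 4. Chromosome 6 (1.05) and chromosome 3 (0.844) were the exceptions. The even arms of chromosomes 11 and 12 came with sparse long arms, not with dense short arms. Their long arms were the sparsest (chromosome 12) and the next (chromosome 11) of 12 long arms. The other 10 held 74.2 to 119 peaks per Mb. Low density was the ground for picking both chromosomes, so these ranks restate the choice in part. Their short arms ranked 4 (chromosome 12) and 5 (chromosome 11) from the sparsest of 11 short arms, above chromosome 4 (23.0 peaks per Mb), chromosome 10 (26.9) and chromosome 8 (38.1) and just under chromosome 5 (44.1) and chromosome 7 (44.8). The intervals of these short arms overlapped from chromosome 8 to chromosome 7.

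**Figure D1:**
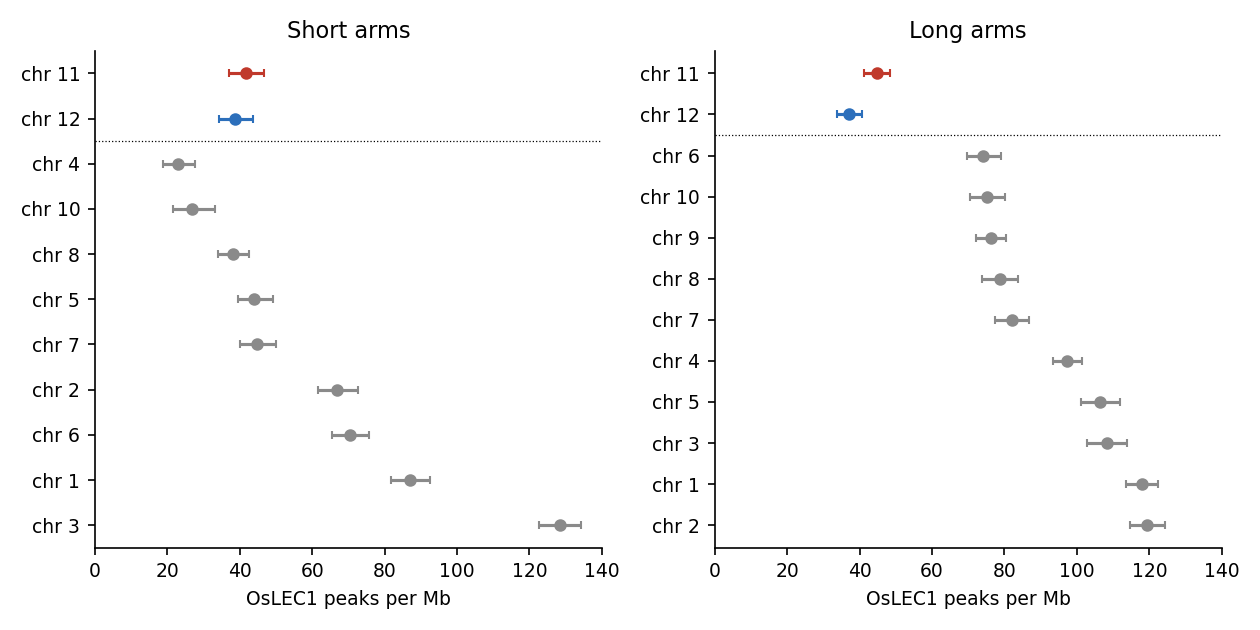
Peaks per Mb on each arm of the OsLEC1-ChIP library, short arms on the left and long arms on the right, with chromosomes 11 and 12 coloured above the dotted line, the other chromosomes grey in order of density, and bars for exact 95% Poisson intervals (counting error). The long arms of chromosomes 12 and 11 stand at 37.2 and 44.7, below the 74.2 of the next long arm. Their short arms at 38.7 and 41.7 sit among those of chromosomes 8, 5 and 7. Chromosomes 11 and 12 were picked for their low density.

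Both chromosomes together had 40.8 peaks per Mb (38.9 to 42.8), against 88.1 (86.9 to 89.3) over the 238 Mb of the other arms, a ratio of 0.463 (0.441 to 0.487). As the chromosomes were picked for their low density, this ratio describes the choice. The shortfall was divided unequally between the arms, at 0.428 (0.402 to 0.455) for the long arms against the other long arms and 0.571 (0.522 to 0.623) for the short arms against the other short arms. With intervals widened for the spread among 1 Mb bins, these became 0.364 to 0.502 and 0.445 to 0.733, which overlap. Density was 37.7 peaks per Mb (35.0 to 40.5) on chromosome 12 and 43.7 (40.9 to 46.6) on chromosome 11, a ratio of 0.863 (0.782 to 0.952). The widened interval of that ratio, 0.670 to 1.11, included 1. The widening takes in any gradient along the arms, so it cannot show whether the gap between the chromosomes was larger than the scatter among bins. The counts rest on the q threshold: with only peaks at −log10 q of 10 or more, 1086 members remained, at 28.6 per Mb on chromosome 11 and 25 on chromosome 12.

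Along the arms, the usual increase in peak density away from the centromere was small on the long arm of chromosome 11 and began farther out on that of chromosome 12. Between 2 and 5 Mb from the centromere on the long arm, chromosome 11 had 39.0 peaks per Mb (32.3 to 46.7), against 43.6 over the other 10 long arms, a ratio of 0.895 (0.734 to 1.08). Chromosome 12 had 20.7 (15.8 to 26.5) in that band, lower than the 23.7 to 72.7 of the other long arms one by one, at a ratio of 0.474 (0.362 to 0.612). Next to the centromere, then, the long arm of chromosome 11 could not be told from the other long arms and that of chromosome 12 was already sparse.

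From 5 to 8 Mb on the long arm, density was 47.7 peaks per Mb (40.2 to 56.2) on chromosome 11 and 31.7 (25.6 to 38.7) on chromosome 12, against 64.1 over the other long arms, with ratios of 0.744 (0.623 to 0.882) and 0.494 (0.398 to 0.608). Both values lay inside the 23.3 to 92.7 of the other long arms one by one. From 8 to 11 Mb the density was 54.7 peaks per Mb (46.6 to 63.7) on chromosome 11 and 30.3 (24.4 to 37.2) on chromosome 12, against 101 over the other long arms, which ran from 62.3 to 136. From 11 to 14 Mb it was 46.3 (39.0 to 54.7) on chromosome 11 and 60.7 (52.2 to 70.1) on chromosome 12, against 122, with single arms from 103 to 147. The ratio to the other long arms thus stood at 0.378 (0.317 to 0.448) for chromosome 11 and 0.495 (0.425 to 0.575) for chromosome 12 in the outermost band. In these 2 bands both chromosomes lay below all 10 other long arms. Among the long-arm bands, chromosome 12 was the denser of the 2 only between 11 and 14 Mb.

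The short arms were somewhat sparser than the others near the centromere. Farther out the shortfall was larger from 5 to 8 Mb on chromosome 12 and beyond 8 Mb on chromosome 11. From 2 to 5 Mb from the centromere, chromosome 11 had 33.0 and chromosome 12 had 33.7 peaks per Mb, against 39.6 over the other 9 short arms, with ratios of 0.834 (0.672 to 1.03) and 0.851 (0.687 to 1.04). From 5 to 8 Mb the values were 50.3 for chromosome 11 and 33.7 for chromosome 12, against 62.1 over 8 other short arms that ran from 15.9 to 110. The ratios were 0.811 (0.681 to 0.960) and 0.542 (0.439 to 0.664). Both short arms stayed inside the range of the others in these bands. From 8 to 11 Mb only 1 Mb of chromosome 11 entered, with 42.0 peaks per Mb (30.3 to 56.8), against 99.3 over 7 other short arms that ran from 41.4 to 169. Its ratio was 0.423 (0.304 to 0.574), and only 1 of the other short arms was sparser over its part of the band. That 1 Mb lay at the inner edge of the band, while the other short arms reached farther out, so the distances were unlike. Chromosome 12 had less than 1 Mb in this band and was not entered. In the bin from 3000000 to 3999999, chromosome 11 held 42 peaks and chromosome 12 held 69. The median of 7 bins of other short arms at a like distance was 79.

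Cutting each arm at its middle gave a similar picture without fixed distances, except that no increase showed on the long arm of chromosome 11. On the long arm of chromosome 11 the outer part had 42.8 peaks per Mb and the inner part 46.6, an outer-over-inner ratio of 0.917 (0.781 to 1.08, widened 0.681 to 1.24). On the long arm of chromosome 12 the outer part had 46.6 and the inner part 27.7, a ratio of 1.68 (1.39 to 2.04, widened 0.876 to 3.22). All 10 other long arms had ratios above 1, from 1.38 to 3.18, with counting intervals that did not overlap that of chromosome 11. The widened intervals of 8 of these 10 arms did overlap the widened interval of chromosome 11. The widening uses all bins of an arm, so a gradient along the arm widens its own interval. The overlap therefore cannot show whether the contrast was larger than the scatter among bins. The outer-over-inner ratio of the short arms was 1.54 (1.21 to 1.96, widened 0.785 to 3.02) on chromosome 11. It was 1.32 (1.03 to 1.70, widened 0.484 to 3.61) on chromosome 12. Both lay inside the 0.862 to 2.18 of the other short arms, and both widened intervals included 1.

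**Figure D2:**
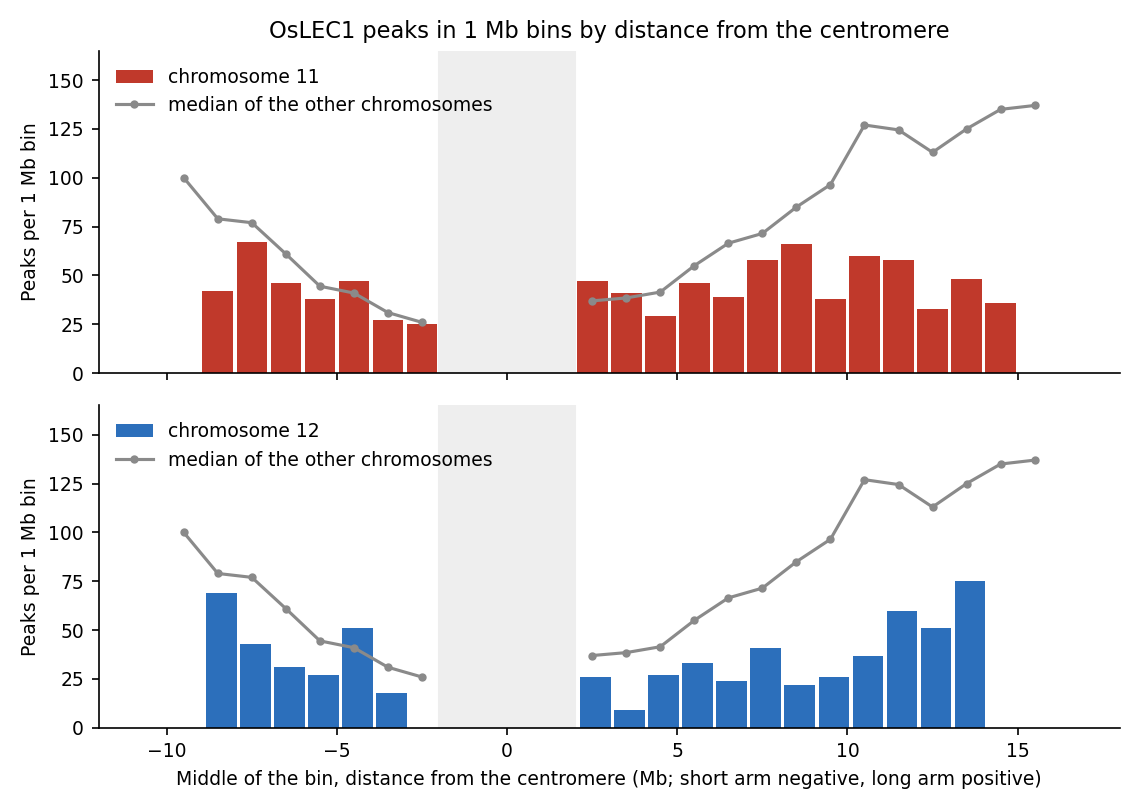
Peaks in each complete 1 Mb bin (bars) of chromosome 11 (top) and chromosome 12 (bottom) against the distance of the bin's middle from the centromere in Mb, short arm negative and long arm positive, with a grey line for the median of bins on chromosomes 1 to 10 at each distance with 5 or more bins, and the stretch left out shaded. The bars stay at or below 75, while the grey line reaches 137 on the long arm.

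The 38 complete 1 Mb bins of the 2 chromosomes held 9 to 75 peaks with a median of 40, against 9 to 185 with a median of 89.5 in 224 bins of the other arms. None of the 38 bins held over 100 peaks, against 93 of the 224. Among those 224, the 21 bins on the short arms of chromosomes 5, 7 and 8 also had 0 over 100. Of the 2 member chromosomes, chromosome 12 was the more uneven. Its 18 bins ran from 9 to 75 with a median of 32 and a variance 8.65 times the mean. The 20 bins of chromosome 11 ran from 25 to 67 with a median of 44 and a variance 3.39 times the mean. Spearman's rho between the count of a bin and its distance from the centromere was 0.0385 on the long arm of chromosome 11 (13 bins) and 0.704 on that of chromosome 12 (12 bins), against 0.795 over 153 bins of other long arms. It was 0.643 and 0.657 on the short arms of chromosome 11 (7 bins) and chromosome 12 (6 bins), against 0.770 over 71 bins. These are descriptions, because all bins share 1 library and its depth.

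The bins show where the peaks were concentrated. On the long arm of chromosome 12, counted outward from 14 Mb, the bins held 26, 9, 27, 33, 24, 41, 22, 26, 37, 60, 51 and 75 peaks. The last 3 bins, from 23 to 26 Mb, were the densest of the arm. On the long arm of chromosome 11 from 14 Mb the bins held 47, 41, 29, 46, 39, 58, 66, 38, 60, 58, 33, 48 and 36 peaks, with the higher counts in the middle. On the short arms, read from 3 Mb toward the centromere, chromosome 11 held 42, 67, 46, 38, 47, 27 and 25 peaks and chromosome 12 held 69, 43, 31, 27, 51 and 18. Both short arms were thinnest in the complete bin nearest the centromere. The densest bins were 4000000 to 4999999 on chromosome 11 (67 peaks) and 25000000 to 25999999 on chromosome 12 (75 peaks). The sparsest were 9000000 to 9999999 on chromosome 11 (25 peaks) and 15000000 to 15999999 on chromosome 12, whose 9 peaks had a median pileup of 48 fragments, above the 35 of all members.

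Long empty stretches were a feature of chromosome 12 more than of chromosome 11. On the long arm of chromosome 12 no summit was listed between 20363141 and 20782722 (420 kb) or between 15467204 and 15855939 (389 kb), and on its short arm the longest gap ran from 8915030 to 9182991 (268 kb). The longest gaps of chromosome 11 were 255 kb on the long arm (27217698 to 27472917) and 184 kb on the short arm (8416555 to 8600475). Distances over 100 kb between neighbouring summits made up 5.31% (3.81 to 7.19) of the distances on chromosome 12 and 2.51% (1.60 to 3.75) on chromosome 11. Over both they were 62 of 1649 distances, or 3.76% (2.89 to 4.79), against 0.715% on the other arms. Of 404 windows of 100 kb, 39 held no summit (9.65%, 6.95 to 13), against 88 of 2380 on the other arms (3.70%, 2.98 to 4.54). The short arms of chromosomes 5, 7 and 8, picked afterwards for their like density, had 8.48% of windows empty (5.18 to 12.9), 2.65% of distances over 100 kb (1.72 to 3.89) and a longest gap of 491 kb. Gaps of this kind were thus also present on those arms, with intervals that overlapped those of the members.

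Close clusters of peaks were less common than on the other arms. The median distance between neighbouring summits was 12.9 kb, with quartiles of 4.85 and 28.9 kb, against a median of 5.79 kb on the other arms. Distances under 2 kb, where several summits may belong to 1 promoter or gene, were 185 of the 1649 (11.2%, 9.74 to 12.8), against 4142 of 20985 (19.7%, 19.2 to 20.3). The short arms of chromosomes 5, 7 and 8 had a median of 11.8 kb and 10.7% (8.82 to 12.9) under 2 kb, close to the members. Runs of 3 or more summits less than 2 kb apart numbered 17 and held 57 members (3.45%), against 718 runs with 11.4% of the peaks elsewhere. The longest run had 5 summits, between 19675202 and 19680473 on chromosome 11, with pileups of 22 to 65 fragments. A run of 4 summits on the short arm of chromosome 12, 7891630 to 7896497, ranged more widely, with pileups of 37 to 187.

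**Figure D3:**
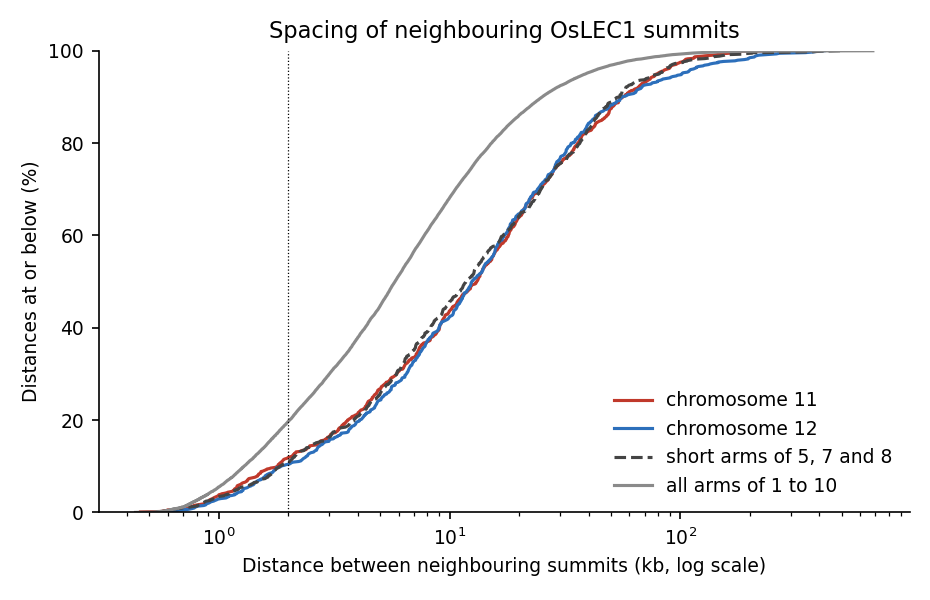
Share of the distances between neighbouring summits (percent) that fall at or below each distance (kb, log axis), for chromosome 11, chromosome 12, the short arms of chromosomes 5, 7 and 8 and all arms of chromosomes 1 to 10, with a dotted line at 2 kb. The curves of chromosomes 11 and 12, with medians of 13.1 and 12.5 kb, lie with that of the 3 short arms (11.8 kb) and to the right of all other arms (5.79 kb).

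Windows of 100 kb with 10 or more peaks numbered 17 (4.21%, 2.47 to 6.65), against 1001 of the other arms (42.1%). Among the member windows, 3 reached the highest count, 12 peaks: 20500001 to 20600000 on chromosome 11, and 9400000 to 9499999 and 25700001 to 25800000 on chromosome 12. The height of a peak went with the distance to its nearest neighbour to a small degree and in no steady order. The 347 members with a neighbour under 2 kb away had a median pileup of 38 fragments (36 to 40). At 2 to 10 kb the median was 36.5 (35 to 38), and at 10 to 20 kb it was 32 (31 to 34). The 237 members with none within 20 kb had 33 (32 to 36), whose interval met that of the closest class.

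The peaks that were present had nearly the same fold enrichment as elsewhere. The median fold was 5.03 (4.90 to 5.20) for the members, against 5.13 (5.10 to 5.20) for the 21004 peaks of the other arms. The median pileup was lower, at 35 fragments (34 to 36), against 39 (39 to 40), and so was the median background, at 5.76 fragments against 6.68. Since both terms were lower together, the ratio moved little. Members ranged from 12 to 248 fragments in pileup and from 2.09 to 43.9 in fold. The arms of the 2 chromosomes differed little among themselves. The median pileup was 36 (35 to 38) on the long arm of chromosome 11, 37 (35 to 39) on that of chromosome 12, 32 (31 to 35) on the short arm of chromosome 11 and 34 (32 to 37) on that of chromosome 12. The median fold was between 4.91 and 5.08 on all 4 arms.

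The background of a peak is the largest of several estimates, taken over the summit fragment, over wider windows of the input, or from the whole genome. It fell to the genome-wide floor of 3.49 fragments, which is used where the input is thinner than average, at 148 members (8.95%, 7.62 to 10.4), against 788 peaks of the other arms (3.75%, 3.50 to 4.02). By arm the share at the floor was 10.1% and 5.97% on the long arms of chromosomes 11 and 12 and 9.59% and 10.9% on their short arms. The estimate over the summit set the background at 65.2% of members, against 64.9% elsewhere. The short arms of chromosomes 5, 7 and 8 had 8.15% of their peaks at the floor (6.48 to 10.1). Input coverage at the summits was therefore thin more often on the 2 chromosomes than on all other arms together, as it was on those short arms. Its part in the peak density was not tested.

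**Figure D4:**
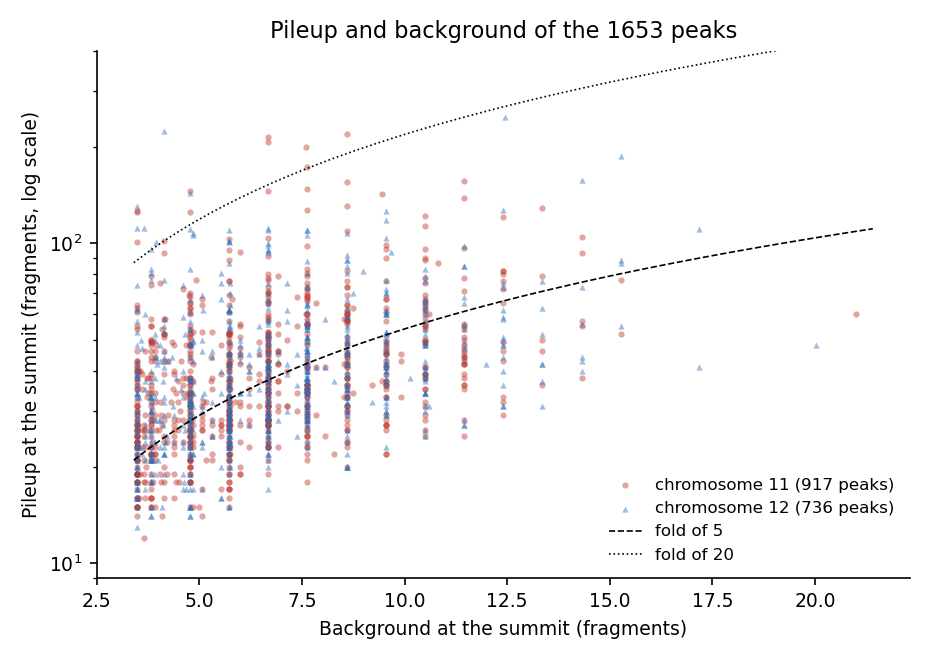
Pileup over the summit (fragments, log axis) against the background (fragments), 1 point for each of the 917 peaks of chromosome 11 and the 736 of chromosome 12, with lines at a fold of 5 and of 20. The points of both chromosomes centre on the line of fold 5 (median 5.03), and the column at the left edge is the floor of 3.49 fragments, where 148 peaks lie.

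Peak height and width went with density when whole arms were compared, and the members resembled the sparse bins of other chromosomes. Across 23 arms, which share 1 library, Spearman's rho with peaks per Mb was 0.954 for the median width, 0.927 for the median pileup, 0.907 for the median background and 0.487 for the median fold. Over 1 Mb bins, rho between the count and the median pileup was 0.182 in the 38 member bins and 0.658 in the 224 others. For the median fold it was 0.0640 and -0.0881. In the 32 member bins with 20 to 60 peaks, the 1257 peaks had a median pileup of 35 (34 to 36), a median fold of 5.01 (4.88 to 5.20) and a median width of 369 bp (362 to 381). The 66 bins of the other arms in that range, spread over 10 chromosomes, held 2707 peaks with a median pileup of 36 (35 to 36), a median fold of 5.12 (5.05 to 5.21) and a median width of 379 bp (372 to 385). The share at the background floor was 9.47% in the member bins and 8.61% in the others. The intervals overlapped for each of the 3 medians, so that at like density the peaks of chromosomes 11 and 12 were not distinguishable from those elsewhere in height, fold or width. The range of 20 to 60 was chosen after the counts were seen.

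Over both arms together, the shortfall was greater among the stronger calls. Members numbered 128 at −log10 q of 2 to 5, 439 at 5 to 10, 560 at 10 to 20, 416 at 20 to 50 and 110 at 50 or more. Their density over that of the other arms was 0.551 (0.456 to 0.661) in the weakest class, then 0.542 (0.491 to 0.598), 0.465 (0.426 to 0.507) and 0.406 (0.366 to 0.448), and 0.372 (0.304 to 0.451) in the strongest. The intervals of the weakest and the strongest class did not overlap. On the long arms the ratio was 0.535 (0.426 to 0.665) in the weakest class and 0.329 (0.255 to 0.420) in the strongest, with intervals that did not overlap. On the short arms it was 0.607 (0.424 to 0.847), 0.691, 0.605, 0.444 and 0.488 (0.346 to 0.673) from the weakest class to the strongest, in no steady order, and the intervals of the weakest and the strongest overlapped. The short arms also had nearly the same share of peaks at 50 or more, 7.33% (5.31 to 9.82), as the short arms of chromosomes 5, 7 and 8, 7.30% (5.73 to 9.15). The 110 members at 50 or more were 6.65% of the members (5.50 to 7.97), against 8.00% of the 27432 peaks on the 12 chromosomes and 8.29% of those on the other arms. By arm they were 40 and 29 on the long arms of chromosomes 11 and 12, and 17 and 24 on their short arms, with the highest share, 8.99%, on the short arm of chromosome 12. In the bins of like density the share was 6.52% for the members and 6.54% for the others.

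**Figure D5:**
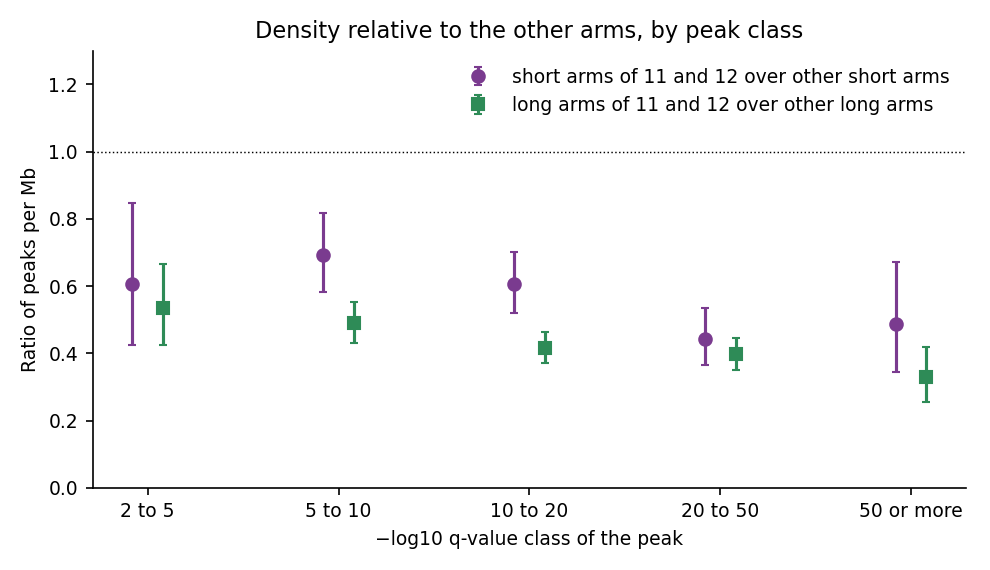
Density of member peaks over that of the corresponding other arms, by class of −log10 q, for the short arms (circles) and the long arms (squares) of chromosomes 11 and 12, with exact 95% intervals of the ratio (counting error) and a line at equal density. All points lie below 1. The long arms go from 0.535 in the weakest class to 0.329 in the strongest, while the intervals of the short arms in these classes overlap.

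Broad peaks were scarce. The members had a median width of 370 bp (363 to 381), against 417 bp (413 to 420) on the other arms, and ran from 241 bp, the fragment length, to 1781 bp. Widths of 1000 bp or more occurred at 30 members (1.81%, 1.23 to 2.58), against 1249 peaks of the other arms (5.95%, 5.63 to 6.27) and 5.21% of the 27432 peaks on the 12 chromosomes. They were 17 of 625 peaks on the long arm of chromosome 11 and 8 of 469 on that of chromosome 12, 0 of 292 on the short arm of chromosome 11, which allows up to 1.26%, and 5 of 267 on that of chromosome 12. In the bins of like density the shares were 1.91% (1.23 to 2.83) for the members and 1.88% (1.41 to 2.47) for the others. The widest member, 19937894 to 19939674 on chromosome 11, was of middling height, with a pileup of 44 and a fold of 6.44. Together the members covered 703 kb, or 1.74% of the stretches, against 4.43% on the other arms.

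The strongest fold enrichment of the whole list was nevertheless a member. The peak at 4415666 to 4416470 on the short arm of chromosome 12 had 225 fragments over its summit (197 to 256) above a background of 4.15, a fold of 43.9 and a −log10 q of 292, ranking 1 in fold and 6 in q among 27452 peaks. On the same arm, the peak at 7706804 to 7707519 reached a fold of 29.4, with 131 fragments (110 to 155) at the background floor of 3.49. It stood apart, with its nearest summit 21.2 kb away. The peak at 3302705 to 3303399 had the highest pileup of all members, 248 fragments (218 to 281), but over a background of 12.4, so that its fold was 18.5. The peak at 9453341 to 9453739, with a fold of 20.1, lay inside the crowded window of that arm.

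On the long arm of chromosome 12 no peak reached the fold of the first pair named on the short arm. The peak at 17840415 to 17840914 had 112 fragments (92.2 to 135) at the floor and a fold of 25.2, the peak at 25115075 to 25115823 had 144 (121 to 170) and a fold of 25.1, and that at 20892743 to 20893274 had 112 and a fold of 24.2. These were 3 peaks with nearly equal fold and overlapping pileup intervals. The first of them was isolated, 28.2 kb from its nearest summit, and the peak at 25115075 lay in the densest bin of the 2 chromosomes.

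The long arm of chromosome 11 had 3 peaks whose fold was nearly equal but whose pileup was not. The peak at 15337051 to 15337828 had 215 fragments (187 to 246) over a background of 6.68, a fold of 28.1 and a −log10 q of 231, ranking 20 in q over the whole list. The peak at 16099794 to 16100400 had 126 fragments (105 to 150) and a fold of 28.3, and the peak at 24112448 to 24113813, a broad one of 1366 bp, had 125 (104 to 149) and a fold of 28.1, both at the floor. The pileup interval of the first did not overlap those of the others, and the equal fold came from the lower background. The peak at 16297802 to 16298499 had 208 fragments and a fold of 27.2. The peak at 22659933 to 22660771 had the highest pileup of the arm among those named, 220 fragments (192 to 251), with a background of 8.59 and a fold of 23.1.

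On the short arm of chromosome 11 the peak at 4499937 to 4500597 led in fold, with 146 fragments (123 to 172) over a background of 4.77, a fold of 25.5 and rank 53 in the whole list. The peak at 3108783 to 3109570 had 173 fragments (148 to 201), a fold of 20.2 and the highest −log10 q of the arm, 161. The peak at 4083669 to 4084407 had 93 fragments (75.1 to 114) and a fold of 18.3. Of these 3, the first and the last lay in the densest bin of the chromosome. The peak at 3473710 to 3474688 had 157 fragments but a background of 11.4, and a fold of 12.7.

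The peaks on either side of each limit of the rule were as follows. On the short arms the first members were at 3031917 on chromosome 11 (fold 6.22, pileup 32) and 3003214 on chromosome 12 (fold 10.5, pileup 53), and the nearest peaks left out were at 2971094 (fold 4.28, pileup 24) and 2997729 (fold 3.13, pileup 29). Toward the centromere the last members were at 9999120 on chromosome 11 (fold 2.61, pileup 29) and 9807287 on chromosome 12 (fold 3.21, pileup 17), and those left out at 10068138 (fold 6.43, pileup 41) and 9907371 (fold 5.31, pileup 55). Both of these members were weak, 1 with a fold under the members' 5th percentile of 2.83 and the other with a pileup under their 5th percentile of 18. On the long arms the first members were at 14014715 (fold 13.7, pileup 104) and 13947032 (fold 5.35, pileup 35), and the nearest left out at 13996548 (fold 6.64, pileup 50) and 13884326 (fold 4.45, pileup 26). At the far ends the last members were at 27945473 (fold 4.13, pileup 25) and 26507305 (fold 2.94, pileup 30), beside 27981497 (fold 4.17, pileup 31) and 26530221 (fold 3.75, pileup 33) outside.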

How the data were processed

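Chromatin of tagged and wild-type callus was immunoprecipitated and sequenced beside its input. Per the submitters' processing notes, reads were aligned with Bowtie2 2.3.4.1 to IRGSP-1.0 and peaks were called with MACS2 2.1.2. The study's methods keep uniquely mapped reads, so repeated sequence can carry no fragments, and the mappable share of these stretches was not measured. The deposited narrowPeak lists, 1 per precipitated library and called by the authors against its input at a q threshold of 0.01, give positions, a score, fold enrichment (a ratio), −log10 p-value and −log10 q-value. Although the methods speak of replicates, each group has a single library by its labels, and nothing was tested across samples.

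Starts were shifted by 1 base to 1-based positions. The pileup and background were solved from fold and p-value, which gave a whole number of fragments within 0.001 for 100% of the peaks. This step was tested on simulated data. Of the 27452 peaks, 27432 lie on the 12 chromosomes and served as the whole for shares by q and width. Densities have exact Poisson intervals, shares Clopper-Pearson intervals, ratios exact conditional intervals, and medians order-statistic intervals. The widened intervals scale the counting error by the variance over the mean among 1 Mb bins of the whole arm or group. They were added after the counts were seen. Centromeres of chromosomes 1 to 10 are approximate, from general knowledge. The peaks named are the 3 highest by fold and by −log10 q on each arm, those next to the limits, and those in the densest and sparsest bins, runs, windows and gaps. Members and lists were chosen with earlier results of these data known. Intervals were computed in Python 3.11.15 with SciPy 1.17.1. The alternatives tried were stricter q thresholds, other margins, peak midpoints, bin medians, each chromosome alone, and centromeres kept in.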

Additional observations from a re-analysis of the deposited data

How the results depend on the processing

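Of 53 values under alternatives, 38 were rated as unchanged and 15 as moved. A value inside the interval of the one reported was rated as unchanged, but the number of members had a wider allowance. Counts of 1525, 1522 and 1559 members, outside the 1574 to 1735 of the main count, were therefore rated as unchanged. Raising the threshold of −log10 q to 10 left 1086 of the 1653 members, with 28.6 peaks per Mb on chromosome 11 and 25 on chromosome 12, a ratio to the other arms of 0.430 and a median pileup of 44 fragments. At 5 these were 40.2 and 34.9 peaks per Mb, and the median pileup was 37. The median of 1 Mb bins gave 32 peaks per Mb on chromosome 12 and 0.811 for its long arm over its short arm. With the centromeres of chromosomes 1 to 10 kept in, the ratio to the other arms was 0.509. It stayed below 1 in each alternative run, which restates the choice of the chromosomes for low density. Keeping the centromeres in, and using chromosome 11 or chromosome 12 alone, were chosen after seeing the data. Distances to gene starts and G-box motifs, planned as alternatives, were not run, since no annotation or genome of this build was used here. No paired analysis was possible because only 1 library stood for each group. The lower depth of NIP-ChIP means that its lack of peaks says little of weak ones.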
